A study of Homo sapiens with 8 samples.

Results

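NAV3, GPRIN3 and RGS5 are 3 genes whose transcripts differed widely in HCT116 cells, a human colorectal carcinoma cell line, after TFAP2C was silenced. They were chosen from the measured values, from among the genes with the largest changes between TFAP2C siRNA and control siRNA. TFAP2C and the keratin-associated protein genes were left out of this choice. Each gene has 1 row in the table of the siRNA experiment, which lists 42125 genes, and 1 row in the table of the Dox experiment, which lists 23393. All 3 genes passed the filter on low counts in both experiments. mRNA-seq was performed on 8 libraries in 4 groups of 2 replicates. Cells in every group, also those given siRNA, stably expressed Tet-On shSAE2, a doxycycline-inducible shRNA against UBA2, the gene of a subunit of the SUMO-activating enzyme. The first pair of groups was treated with control siRNA or TFAP2C siRNA for 48 hrs. The second pair was given DMSO, or doxycyclin at 1 μg/mL (Dox) to induce the shRNA, for 5 days. The labels call the last group SAE2 kd. Nothing in the labels says that replicates came from separate cultures, so p-values measure only the spread between these libraries. The line is a single stable line, and the labels do not say whether it is 1 clone.

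The siRNA libraries held from 20785035 to 24465109 counts and the Dox experiment's libraries from 18213739 to 20607813, so that 1 read was worth 0.0410 to 0.0479 CPM (read counts scaled to a common library size) in the former and 0.0479 to 0.0555 CPM in the latter. TFAP2C transcript averaged 19.7 CPM with control siRNA and 3.88 CPM with TFAP2C siRNA. UBA2 transcript did not follow the label in the Dox experiment, and UBA2 protein, the product that the shRNA was meant to lower, was not analysed here. It averaged 154 ± 10.8 CPM with DMSO and 150 ± 4.39 CPM in the libraries labelled SAE2 kd (SD, n = 2 each), with a log2 fold change of -0.036 ± 0.056 (SE, edgeR quasi-likelihood test, adjusted p = 0.766). The epithelial genes EPCAM, CDH1, KRT8 and KRT18 were expressed in both experiments, as was the intestinal transcription factor CDX2, with 21.8 CPM with control siRNA and 19.9 CPM with DMSO, whereas the colon genes CEACAM5, GPA33 and VIL1 were under 1 CPM.

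NAV3 encodes neuron navigator 3, a large protein that rides on the growing plus ends of microtubules and is known from neurons and from tumors in which its gene is deleted or mutated. GPRIN3 belongs to the G protein-regulated inducers of neurite outgrowth, membrane-associated proteins that bind activated G alpha subunits and are known mainly from the nervous system. RGS5 is a regulator of G protein signaling of the R4 subfamily. Such proteins speed the hydrolysis of GTP by G alpha subunits and thereby shorten receptor signaling, and the RGS5 protein is degraded through its N-terminal cysteine by the N-degron pathway. RGS5 transcript is widely used as a marker of pericytes. TFAP2C is a transcription factor of the AP-2 family.

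NAV3 lies on chromosome 12, on the plus strand, at 77324641 to 78213010 in GRCh38, the build that the positions in the siRNA experiment's table follow. GPRIN3 lies on the minus strand of chromosome 4 at 89236383 to 89307800, and RGS5 on the minus strand of chromosome 1 at 163111121 to 163321791. In the table of the Dox experiment, which uses hg19, the genes span 78225069 to 78606790, 90165429 to 90229161 and 163112089 to 163291581. RefSeq promoters of GRCh38.p14 include 2 start sites of NAV3 and 2 of RGS5. For each of these genes, the 250 bases before 1 start site are shown because that stretch overlaps no exon of its own gene in GENCODE, whereas the stretch before the other start site does. The first is chr12:77830644-77830893 on the plus strand and the second is chr1:163202917-163203166 on the minus strand, both written 5′ to 3′.
NAV3: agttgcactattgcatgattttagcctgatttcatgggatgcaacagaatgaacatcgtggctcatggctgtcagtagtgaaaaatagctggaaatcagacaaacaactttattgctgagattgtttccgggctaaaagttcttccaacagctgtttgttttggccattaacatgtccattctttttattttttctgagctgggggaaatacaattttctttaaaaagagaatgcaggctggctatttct
RGS5: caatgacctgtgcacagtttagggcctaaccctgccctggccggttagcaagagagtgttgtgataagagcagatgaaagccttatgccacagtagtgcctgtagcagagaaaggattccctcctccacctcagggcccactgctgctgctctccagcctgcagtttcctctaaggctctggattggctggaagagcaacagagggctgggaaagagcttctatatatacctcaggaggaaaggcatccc

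Of these bases, 38.0% are G or C in NAV3 and 53.6% in RGS5. The AP-2 site GCCNNNGGC, which reads the same on both strands, was searched in all windows of 250 bases before to 50 after a start site. It was found in 0 of the 4 windows of NAV3 and RGS5, and in 8146 of 35116 RefSeq windows (23.2%). No letters in these sequences are capitalized because the motif does not occur in them. Distant enhancers were not searched.

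Transcripts of NAV3 were more abundant with TFAP2C siRNA, and transcripts of GPRIN3 and RGS5 less abundant. Because this contrast chose the genes, its values are a description and no test is given. NAV3 read counts were 147 and 142 in the control siRNA libraries and 440 and 426 in the TFAP2C siRNA libraries. In CPM, these were 6.03 and 6.81 with control siRNA and 18.3 and 19.1 with TFAP2C siRNA. Both TFAP2C siRNA libraries lay well above both controls and close to each other. The means were 6.42 ± 0.549 and 18.7 ± 0.508 CPM (SD, n = 2 each), a ratio of 2.91 and a fitted log2 fold change of 1.55 ± 0.12 (SE), with a 95% interval from 1.29 to 1.80.

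GPRIN3 read counts were 90 and 81 with control siRNA and 41 and 46 with TFAP2C siRNA, which correspond to 3.69, 3.88, 1.71 and 2.06 CPM. The lower value of the controls was still above the higher value of the TFAP2C siRNA libraries. Its mean was 3.79 ± 0.135 CPM in controls and 1.88 ± 0.247 CPM with TFAP2C siRNA (SD, n = 2 each), a ratio of 0.497 and a log2 fold change of -1.01 ± 0.19 (SE). RGS5 read counts were 162 and 118 with control siRNA and 73 and 72 with TFAP2C siRNA. The corresponding levels were 6.65, 5.66, 3.04 and 3.22 CPM. The control libraries of RGS5 differed more from each other than the TFAP2C siRNA libraries did, and the groups did not overlap. RGS5 averaged 6.15 ± 0.700 CPM in controls and 3.13 ± 0.126 CPM with TFAP2C siRNA (SD, n = 2 each), a ratio of 0.509 and a log2 fold change of -0.98 ± 0.16 (SE).

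**Figure D1:**
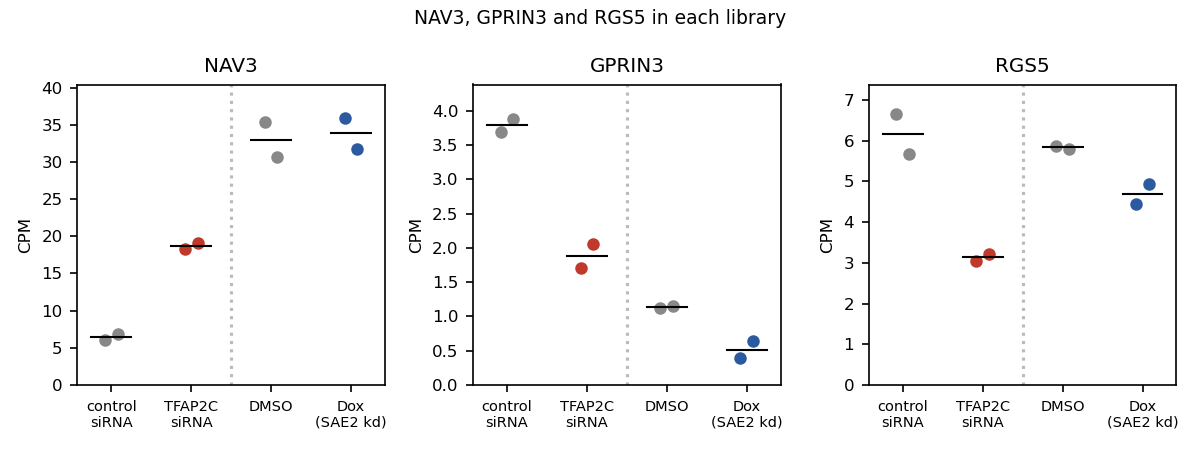
CPM of NAV3, GPRIN3 and RGS5 in each of the 8 libraries, with the vertical axis of each panel starting at 0, points for libraries and a line at each group's mean. NAV3 stands at 18.3 and 19.1 CPM in the TFAP2C siRNA libraries against 6.03 and 6.81 CPM in their controls, and at 30.6 to 35.9 CPM in all 4 libraries of the Dox experiment.

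In the siRNA experiment, 111 of 14991 genes tested (0.74%) passed an adjusted p of 0.05 by the edgeR quasi-likelihood test, 39 of them higher (0.26%) and 72 lower (0.48%). Libraries of the groups did not overlap in 44.7% of genes, 22.4% higher and 22.4% lower. The 3 genes are in both counts by the way they were chosen. The count over all genes was not stable, being 49 without control siRNA replicate 1, 537 without TFAP2C siRNA replicate 1 and 2825 without TFAP2C siRNA replicate 2. Among 108 genes that passed with a log2 CPM averaging 1 or more, TFAP2C had the largest log2 fold change in size (-2.34), followed by the keratin-associated protein genes KRTAP3-1 (1.87) and KRTAP2-3 (1.74). NAV3 was next. Just outside the chosen genes, DHRS2, a short-chain dehydrogenase, had 1.38 and GALNT5, a glycosyltransferase that starts mucin-type O-glycans, 1.03. Both exceed GPRIN3 and RGS5 in size, so by size alone the choice would have held them. GPRIN3 and RGS5 are the genes with the largest falls after TFAP2C, followed by PPP1R1B (-0.97), GRIK4 (-0.94) and PNMA2 (-0.91).

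The Dox experiment did not choose the genes, so NAV3 and RGS5 could be tested there. GPRIN3 passed the filter on low counts through the DMSO group, where it was higher, so its test is not independent of the filter. Of the 3 genes, 0 passed an adjusted p of 0.05 by the edgeR quasi-likelihood test, where 1336 of 13381 genes (9.98%) passed, 738 higher (5.52%) and 598 lower (4.47%). At an unadjusted p of 0.05 it was 1 of the 3, GPRIN3, beside 3036 of all genes. DESeq2 gave NAV3 no call and left the adjusted p of the other two undefined. Without DMSO replicate 2, 833 genes passed in all.

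NAV3 read counts were 662 and 639 with DMSO and 647 and 591 in the libraries labelled SAE2 kd. Its levels of 35.4 and 30.6 CPM with DMSO and 35.9 and 31.7 CPM in the libraries labelled SAE2 kd overlapped, and the spread within each group exceeded the difference between them. NAV3 averaged 33.0 ± 3.36 and 33.8 ± 2.96 CPM (SD, n = 2 each). The log2 fold change was 0.038 ± 0.083 (SE, edgeR quasi-likelihood test, adjusted p = 0.839). Its 95% interval, from -0.13 to 0.21, limits the ratio to between 0.913 and 1.15. The sign of the NAV3 difference rested on single libraries, with log2 fold changes of -0.064 without DMSO replicate 2 and -0.052 without SAE2 kd replicate 1.

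GPRIN3 was scarce in this experiment, with 21 and 24 reads in the DMSO libraries and 7 and 12 in the libraries labelled SAE2 kd. Its levels were 1.12 and 1.15 CPM with DMSO and 0.389 and 0.645 CPM in the libraries labelled SAE2 kd. The groups did not overlap, with both DMSO libraries higher. Mean levels were 1.14 ± 0.0200 and 0.517 ± 0.181 CPM (SD, n = 2 each). The log2 fold change was -1.12 ± 0.39 (SE, 95% interval from -1.92 to -0.33). The adjusted p of 0.0644 by the edgeR quasi-likelihood test, which was not independent of the filter, did not pass. Over the 4 fits that each left out 1 library, its log2 fold change ran from -1.53 to -0.81 and it passed in 0 of them.

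RGS5 read counts were 110 and 121 with DMSO and 80 and 92 in the libraries labelled SAE2 kd. In CPM it was 5.88 and 5.80 with DMSO and 4.44 and 4.94 in the libraries labelled SAE2 kd, so the groups again did not overlap. That GPRIN3 and RGS5 had both DMSO libraries above both others compares with 25.8% of all genes, and with 51.3% that did not overlap in either direction. RGS5 averaged 5.84 ± 0.0552 and 4.69 ± 0.353 CPM (SD, n = 2 each), with a log2 fold change of -0.31 ± 0.16 (SE, 95% interval from -0.63 to 0.0067) and an adjusted p of 0.233 by the edgeR quasi-likelihood test. RGS5 did not pass. UBA2 transcript did not differ in step with the label, so these directions are those of Dox against DMSO. TFAP2C itself averaged 7.81 CPM with DMSO and 6.41 CPM in the libraries labelled SAE2 kd, with a log2 fold change of -0.28 ± 0.14 (SE, edgeR quasi-likelihood test, adjusted p = 0.222).

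The levels of the genes also differed between the control groups of the experiments. These tables count reads on different annotations, so the following are values side by side and were not tested. NAV3 averaged 6.42 CPM with control siRNA and 33.0 CPM with DMSO, a ratio of 5.14. Of 12158 genes tested in both experiments, 174 (1.43%) had a larger ratio, and the median ratio was 1.05. Per kilobase of the gene length that each table gives (RPKM), the ratio for NAV3 was 6.60. SYT1, which encodes the synaptic vesicle protein synaptotagmin 1 and is the nearest gene tested at higher coordinates than NAV3, had 14.4 CPM with control siRNA and 98.9 CPM with DMSO. GPRIN3 had the opposite order to NAV3, with 3.79 and 1.14 CPM. Its ratio of 0.300 in CPM became 0.708 in RPKM, since the lengths given for it are 14.996 and 6.35 kb. RGS5 was alike in both, with 6.15 and 5.84 CPM.

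Within their families, the genes were compared with relatives that did not enter the choice. NAV1 and NAV2 are the other neuron navigators. NAV1 levels were 94.5 and 102 CPM with control siRNA and 99.7 and 90.6 CPM with TFAP2C siRNA. NAV2 levels were 10.5 and 10.7 CPM with control siRNA and 10.9 and 11.2 CPM with TFAP2C siRNA. Neither passed the edgeR quasi-likelihood test, with log2 fold changes of -0.050 ± 0.078 for NAV1 (adjusted p = 0.827) and 0.055 ± 0.11 for NAV2 (SE, adjusted p = 0.869). Their 95% intervals ran from -0.22 to 0.12 for NAV1 and from -0.18 to 0.29 for NAV2. NAV3 was chosen for its size here, so its distance from them is not a result. With Dox, NAV2 rose from 12.4 and 11.4 CPM with DMSO to 15.9 and 16.2 CPM in the libraries labelled SAE2 kd, with a log2 fold change of 0.43 ± 0.11 (SE, edgeR quasi-likelihood test, adjusted p = 0.00588). This call was lost without DMSO replicate 2 (adjusted p = 0.0720) and with DESeq2 (adjusted p = 0.0931). NAV1 had a log2 fold change of -0.085 ± 0.064 there (SE, edgeR quasi-likelihood test, adjusted p = 0.468).

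**Figure D2:**
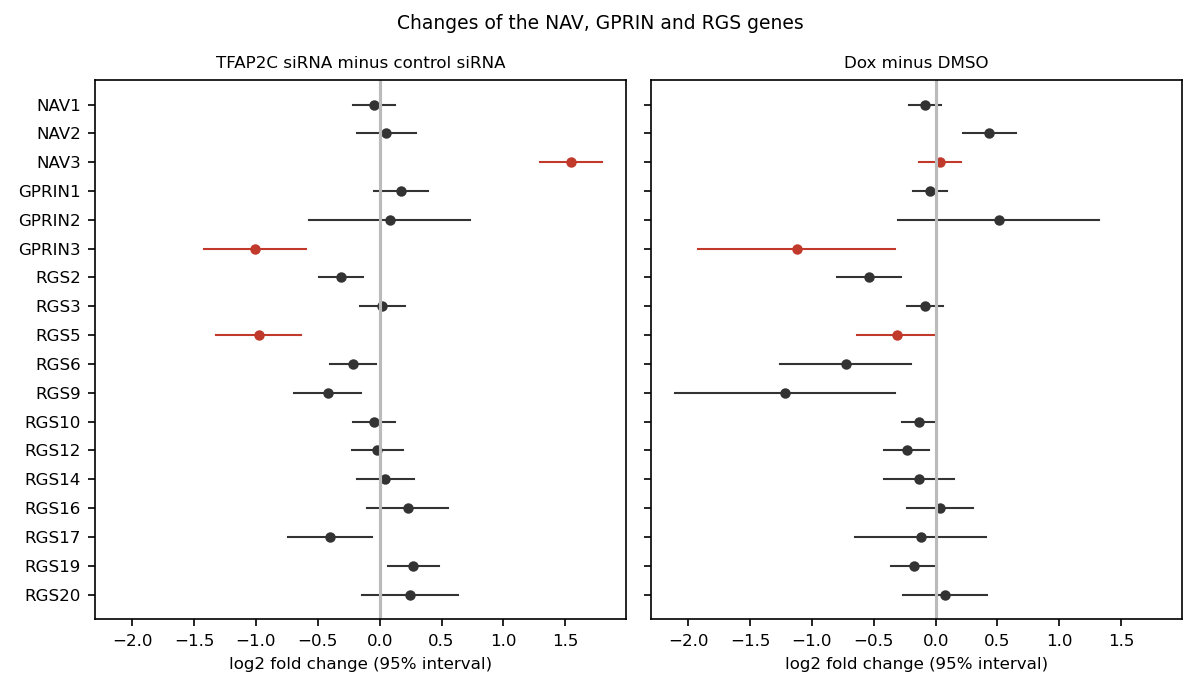
Log2 fold changes with 95% intervals for the NAV, GPRIN and RGS genes that passed the filter on low counts, in the siRNA experiment and the Dox experiment, with NAV3, GPRIN3 and RGS5 in red and intervals not adjusted for the number of genes. NAV3, at 1.55 in the siRNA experiment, and GPRIN3 and RGS5, at -1.01 and -0.98, stand away from their relatives there by choice, while in the Dox experiment NAV3 lies at 0.038 and the genes past the test are NAV2, at 0.43, and RGS2, at -0.54.

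In RPKM, the order of levels in the NAV family differed between the siRNA groups. NAV3 was chosen for its rise in this contrast, so the new order is a description and not a result. With control siRNA, NAV1 had 4.39 ± 0.250, NAV2 0.702 ± 0.0110 and NAV3 0.485 ± 0.0415 RPKM (SD, n = 2 each). With TFAP2C siRNA, NAV3 reached 1.41 ± 0.0384 RPKM and stood above NAV2, at 0.730 ± 0.0143 RPKM, while NAV1 had 4.24 ± 0.288 RPKM. In both siRNA groups, the libraries of genes next to each other in this order did not overlap. NAV1, NAV3 and NAV2 followed each other in both groups of the Dox experiment, at 4.402, 3.20 and 0.884 RPKM with DMSO and at 4.14, 3.28 and 1.19 RPKM in the libraries labelled SAE2 kd.

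GPRIN1, the founding member of its family, had the highest mean RPKM of the GPRIN genes in all groups, and GPRIN3 the lowest. GPRIN1 levels were 23.3 and 25.8 CPM with control siRNA and 29.5 and 25.7 CPM with TFAP2C siRNA, with a log2 fold change of 0.17 ± 0.10 (SE, edgeR quasi-likelihood test, adjusted p = 0.502). GPRIN2 was close to 1 CPM in all 4 siRNA libraries, from 0.862 to 1.20 CPM, with a log2 fold change of 0.082 ± 0.30 (SE, adjusted p = 0.933). Neither passed in the Dox experiment, where GPRIN1 had a log2 fold change of -0.047 ± 0.068 (adjusted p = 0.750) and GPRIN2 0.51 ± 0.40 (SE, adjusted p = 0.492). The 95% interval of GPRIN1 with TFAP2C siRNA ran from -0.046 to 0.39. GPRIN1 passed when TFAP2C siRNA replicate 2 was left out (adjusted p = 0.0214). In RPKM, GPRIN1, GPRIN2 and GPRIN3 had 5.80, 0.524 and 0.253 with control siRNA, and 6.53, 0.548 and 0.126 with TFAP2C siRNA.

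**Figure D3:**
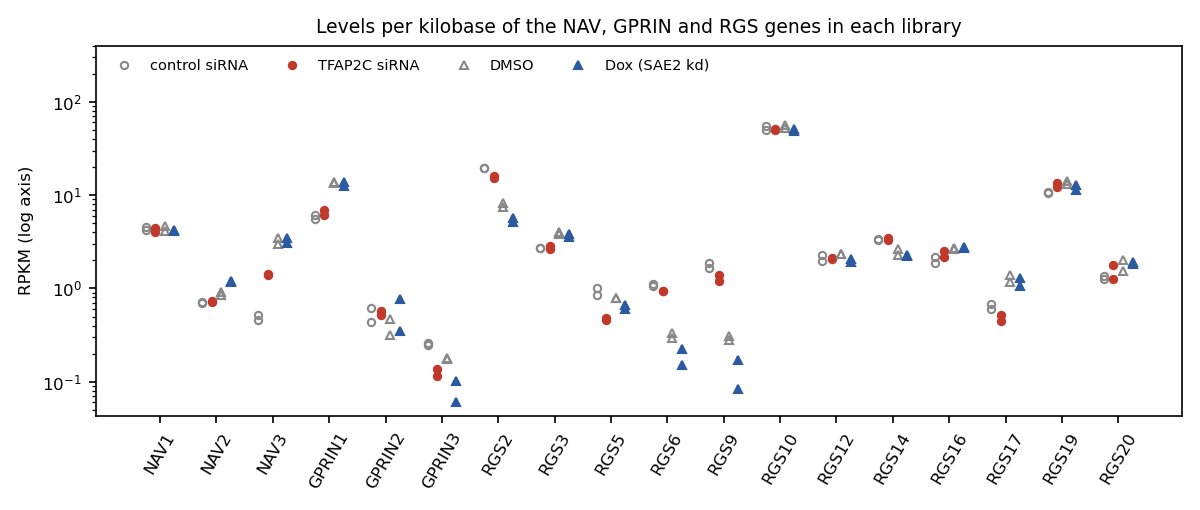
RPKM of the NAV and GPRIN genes and of the RGS genes that passed the filter on low counts, on a log axis, with 1 symbol per library in the 4 groups. NAV3 moves from below NAV2 (0.485 against 0.702 RPKM) to above it (1.41 against 0.730 RPKM) with TFAP2C siRNA, the contrast that chose it. RGS5 lies near the bottom of the RGS genes in each group.

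Of 19 other RGS genes, 11 passed the filter on low counts in each experiment. With TFAP2C siRNA, 0 of the 11 passed the edgeR quasi-likelihood test and 0 passed with DESeq2, while 5 had an unadjusted p under 0.05, as did 1889 of all 14991 genes. Their median log2 fold change was -0.019, beside -0.0038 over all genes tested. RGS2, which acts on G alpha q and is an immediate early gene, had 40.5 CPM in both control libraries and 31.9 and 33.2 CPM with TFAP2C siRNA, a log2 fold change of -0.31 ± 0.082 (SE, adjusted p = 0.137). RGS9, known from photoreceptors and striatum, had -0.42 ± 0.12 (SE, adjusted p = 0.187) and RGS17 had -0.40 ± 0.16 (SE, adjusted p = 0.319). RGS19, which acts on G alpha i, had 0.27 ± 0.095 (SE, adjusted p = 0.258), and RGS6 -0.21 ± 0.085 (SE, adjusted p = 0.330). These outcomes were not stable. RGS2 passed with all 8 libraries in one fit (adjusted p = 0.0415) and RGS9 without a filter on low counts (adjusted p = 0.0495), among other settings. Of the 8 settings that kept all libraries, 6 left the outcome of each gene unchanged. The smallest edgeR adjusted p over these settings was 0.0340 for RGS2 and 0.0430 for RGS9. Without TFAP2C siRNA replicate 2, RGS2, RGS17, RGS19 and RGS20 passed, and without TFAP2C siRNA replicate 1, RGS2 and RGS9 passed.

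After Dox, RGS2 fell from 9.99 and 11.1 CPM with DMSO to 7.55 and 6.98 CPM in the libraries labelled SAE2 kd, with a log2 fold change of -0.54 ± 0.13 (SE, edgeR quasi-likelihood test, adjusted p = 0.00453). The call was lost without DMSO replicate 2 (adjusted p = 0.0565) and with DESeq2 (adjusted p = 0.0963). RGS2 was the 1 gene of 11 that passed, a share near the 9.98% of all genes. Of the 11 log2 fold changes, 9 were below 0, with a median of -0.14 beside -0.00042 over all genes. RGS9 had 19 reads in each DMSO library and 10 and 5 in the libraries labelled SAE2 kd, a log2 fold change of -1.22 ± 0.43 (SE, edgeR quasi-likelihood test, adjusted p = 0.0739). Like GPRIN3, RGS9 passed the filter on low counts through the DMSO group, so its test is not independent of the filter. RGS6 had -0.73 ± 0.26 (SE, adjusted p = 0.0747) and passed without SAE2 kd replicate 2 (adjusted p = 0.0453). RGS6 and RGS9 also differed between control groups, with 33.2 and 12.3 CPM with control siRNA and 2.39 and 0.963 CPM with DMSO.

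RGS5 ranked low among the RGS genes that passed the filter. With control siRNA it had 0.931 ± 0.106 RPKM (SD, n = 2), the 11th of 12, above RGS17 at 0.642 RPKM and below RGS6 at 1.09 RPKM. With TFAP2C siRNA it was the last of 12 at 0.474 ± 0.0191 RPKM, level with RGS17 at 0.489 ± 0.0514 RPKM, a difference within their spread. RGS5 was chosen for its fall in this contrast, so its lower place there is not a result. With DMSO or Dox it was the 10th of 12 in both groups, at 0.787 RPKM with DMSO and 0.633 RPKM in the libraries labelled SAE2 kd. RGS10, a short RGS protein known from leukocytes, led with 52.3 RPKM with control siRNA and 54.4 RPKM with DMSO. RGS4, which lies beside RGS5 on chromosome 1 and shares its subfamily and its N-degron, was almost absent, with 11 and 4 reads in the control siRNA libraries, 3 and 2 with TFAP2C siRNA, 3 and 7 with DMSO and 1 and 4 in the libraries labelled SAE2 kd. It did not pass the filter. RGS16, the other R4 member with that N-terminal cysteine, had 4.47 and 5.18 CPM with control siRNA and 6.05 and 5.19 CPM with TFAP2C siRNA, a log2 fold change of 0.23 ± 0.15 (SE, edgeR quasi-likelihood test, adjusted p = 0.564).

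Genes of pathways related to the 3 genes were grouped in lists, without evidence here that each acts with them. With TFAP2C siRNA, the edgeR quasi-likelihood test passed 0 of 24 microtubule plus-end genes, 0 of 10 G alpha subunits, 0 of 10 G beta and gamma subunits, 0 of 12 other G protein regulators and 0 of 7 genes of the N-degron pathway. At an unadjusted p of 0.05 these were 1, 0, 2, 1 and 0 genes, beside 1889 of all 14991. Of the AP-2 genes other than TFAP2C, TFAP2A fell from 61.1 and 61.4 CPM to 47.4 and 46.2 CPM, with a log2 fold change of -0.39 ± 0.075 (SE, edgeR quasi-likelihood test, adjusted p = 0.0361). TFAP2E did not pass, and TFAP2B and TFAP2D had 0 reads. Over all lists, the RGS, NAV and GPRIN relatives included, TFAP2A was the 1 gene of 80 that passed, also with DESeq2, and the median log2 fold change was -0.0060. Without TFAP2C siRNA replicate 2 the count was 5 higher and 9 lower, without TFAP2C siRNA replicate 1 it was 0 higher and 3 lower, and without either control library it was 0.

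After Dox, 4 of the 80 listed genes rose and 6 fell by the edgeR quasi-likelihood test, beside 5.52% and 4.47% of all genes. Among the listed microtubule plus-end genes, CLIP4, a CAP-Gly domain protein, rose with a log2 fold change of 0.42 ± 0.084 (SE, edgeR quasi-likelihood test, adjusted p = 0.000719). DST, a linker of the cytoskeleton, fell by 0.16 ± 0.047 (adjusted p = 0.0285) and GTSE1, a mitotic microtubule protein, by 0.19 ± 0.059 (adjusted p = 0.0381). Among the listed G alpha subunits, GNAI1 fell from 133 and 127 CPM to 105 and 111 CPM, a log2 fold change of -0.27 ± 0.056 (SE, edgeR quasi-likelihood test, adjusted p = 0.00140). GNAS, the stimulatory subunit, rose by 0.15 ± 0.046 (adjusted p = 0.0365). ARRB1, a beta-arrestin that desensitizes receptors, fell from 42.4 and 43.7 CPM to 30.4 and 33.4 CPM, with a log2 fold change of -0.43 ± 0.075 (adjusted p = 0.000103). GPSM2, which binds inactive G alpha i, had -0.22 ± 0.062 (adjusted p = 0.0181). UBR4, a ubiquitin ligase of the N-degron pathway, rose with 0.24 ± 0.048 (adjusted p = 0.000661). Of the 80 log2 fold changes, 25 were above 0 and 55 below, with a median of -0.061. Without DMSO replicate 2, 1 listed gene rose and 5 fell, and without DMSO replicate 1 these were 3 and 3. With DESeq2, 2 rose and 2 fell.

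RGS5 marks pericytes, and its level was therefore set beside 9 other pericyte and smooth muscle markers in the siRNA table and 10 in that of the Dox experiment. KCNJ8 had 0 reads in all 8 libraries, and ABCC9 averaged 0.0821 CPM with control siRNA and 0 with DMSO. PDGFRB averaged 0.941 CPM with control siRNA and 0.218 CPM with DMSO. Other markers were higher with control siRNA, where NOTCH3 averaged 190 CPM, CSPG4 89.3 CPM, ACTA2 14.3 CPM and DES 11.5 CPM. In the siRNA experiment, 4 of the 9 were under 1 CPM in every library. The summed level of the list lay between 289.6 and 323 CPM with control siRNA and between 279 and 304 CPM with TFAP2C siRNA, and 0 of 5 genes tested passed (0 at an unadjusted p of 0.05). With DMSO the sum was 122 to 128 CPM, and 105 to 107 CPM in the libraries labelled SAE2 kd. Of 6 genes tested there, 3 passed, all lower, beside 4.47% of all genes. These were CSPG4, MCAM and NOTCH3, which tumor cells also express. They fell by 0.23, 0.24 and 0.24 on the log2 scale (edgeR quasi-likelihood test, adjusted p = 0.0427, 0.0403 and 0.0308). The part of this list in the RGS5 values was not tested. Since these are bulk samples, fewer cells that hold a transcript and less of it per cell cannot be told apart.

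Of 10 neuronal markers, 8 were under 1 CPM in each experiment. The exceptions were SYT1 and MAP2. The 10 colon epithelium markers summed to between 2807 and 2915 CPM with control siRNA and to between 3136 and 3407 CPM with TFAP2C siRNA, and 0 of 7 tested passed (2 at an unadjusted p of 0.05). In the Dox experiment they summed to between 2151 and 2170 CPM with DMSO and between 2408 and 2501 CPM in the libraries labelled SAE2 kd, where 3 of 7 tested, EPCAM, KRT8 and KRT18, rose, beside 5.52% of all genes, and 0 fell. KRT20, at -0.78 on the log2 scale, CDX2, CDH1 and KRT19 did not pass. KRT20 was among the 4 of these 10 markers that stayed under 1 CPM in every library of the Dox experiment.

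**Figure D4:**
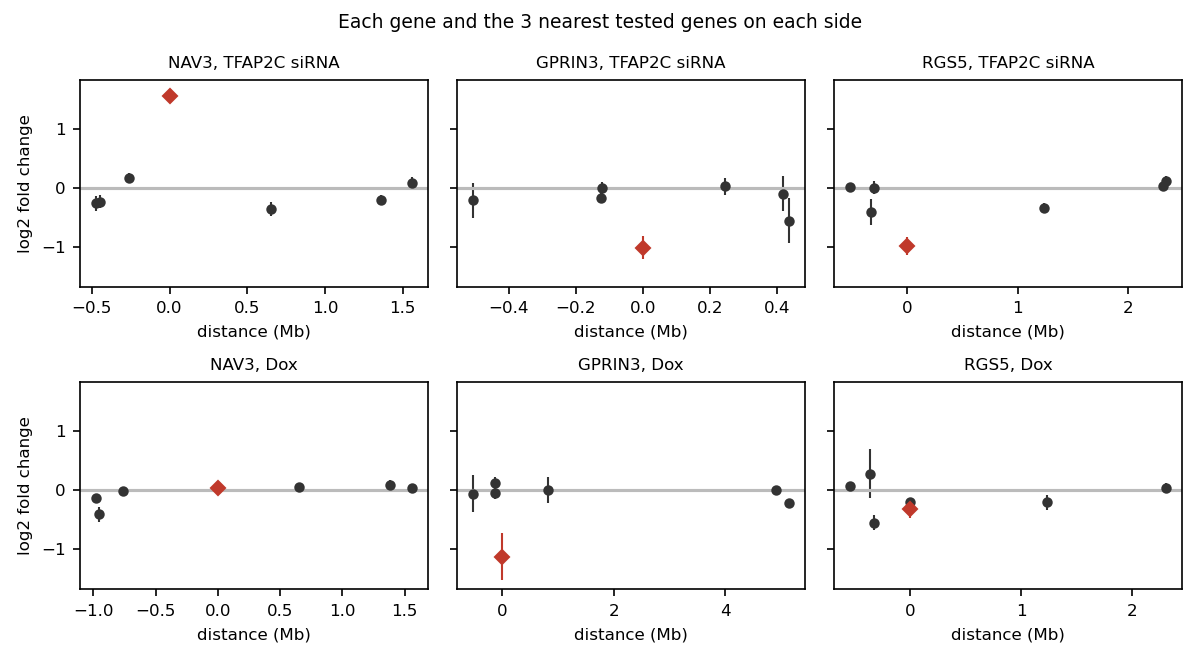
Log2 fold changes with their SE (bars) of NAV3, GPRIN3 and RGS5 (red diamonds) and of the 3 nearest genes tested on each side (black points), against the distance from the gene in Mb, with 1 row of panels per experiment. With TFAP2C siRNA, the 18 neighbours lie between -0.55 and 0.17, against 1.55 for NAV3, -1.01 for GPRIN3 and -0.98 for RGS5.

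Of the genes on either side, 0 of 18 passed the edgeR quasi-likelihood test with TFAP2C siRNA, where 0.74% of all genes passed, and 4 had an unadjusted p under 0.05, beside 1889 of all 14991 genes. SYT1, 651 kb from NAV3, averaged 14.4 CPM with control siRNA and 11.2 CPM with TFAP2C siRNA, opposite in sign to NAV3. Its log2 fold change was -0.36 ± 0.11 (SE, edgeR quasi-likelihood test, adjusted p = 0.209). E2F7, a cell cycle repressor 259 kb away on the other side of NAV3, had 0.17 ± 0.082 (SE, adjusted p = 0.427). FAM13A, 125 kb from GPRIN3, had -0.16 ± 0.091 (SE, adjusted p = 0.486). In the Dox experiment 4 of 18 neighbours passed, all lower, where 9.98% of all genes passed and 4.47% passed lower. They were CSRP2, 952 kb from NAV3, PDLIM5, 5144 kb from GPRIN3, and HSD17B7 and NUF2, 329 and 0.142 kb from RGS5. In the siRNA experiment NUF2 overlapped RGS5 and was not counted as a neighbour.

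RGS5 shares ground with NUF2, a kinetochore gene on the opposite strand. In the siRNA table their spans overlap, and in that of the Dox experiment they are 0.142 kb apart. Whether reads were counted by strand is not given in the sources used here, so reads of the overlap may not be told apart. NUF2 averaged 20.4 ± 3.57 CPM with control siRNA and 19.9 ± 3.43 CPM with TFAP2C siRNA (SD, n = 2 each), with a log2 fold change of -0.046 ± 0.14 (SE, edgeR quasi-likelihood test, adjusted p = 0.917), whereas RGS5 had -0.98. After Dox, NUF2 fell by 0.21 ± 0.066 on the log2 scale (adjusted p = 0.0385), with RGS5 at -0.31. AL592435.1, a non-coding row on the strand of RGS5 that overlaps it, had at most 13 reads in a library and a log2 fold change of -0.17 with TFAP2C siRNA (adjusted p = 0.911). The other 2 rows that overlap RGS5 in the siRNA table, and the 3 that overlap NAV3, had 0 reads.

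To find genes with a like pattern, log2 CPM profiles over the 8 libraries were centered within each experiment and compared by Euclidean distance, among 11001 genes (11002 for GPRIN3) whose log2 CPM averaged 1 or more in both. Pearson's r is given as a description over 8 libraries, which hold 2 comparisons only, and the profiles share the libraries and their depth. Nearest to NAV3 were DHRS2 (distance 0.467, r = 0.954), GALNT5 (0.605, r = 0.955) and KRTAP2-3 (0.730, r = 0.928). DHRS2 and GALNT5 are also the genes that followed NAV3 by size of change. The NAV3 profile holds mainly the siRNA step that chose it, so this is not a separate result. In the Dox experiment, log2 fold changes were 0.044 for DHRS2 and 0.038 for GALNT5, close to that of NAV3, and 0.61 for KRTAP2-3. The Dox libraries entered the distance, so this nearness follows from the search. For comparison, a gene with no change at all would lie at a distance of 1.55 from NAV3.

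Nearest to GPRIN3 were SLC4A8, a sodium-driven chloride bicarbonate exchanger (0.575, r = 0.930), ITGA2B, the platelet integrin alpha chain (0.634, r = 0.958), and MAN1A1, a Golgi mannosidase (0.640, r = 0.976). Log2 fold changes with TFAP2C siRNA and with Dox were -0.71 and -0.50 for MAN1A1, -0.67 and -0.99 for SLC4A8, and -0.49 and -0.75 for ITGA2B. Since these genes were picked for their profiles over the same libraries, no test is given. Nearest to RGS5 were SAMD5 (0.241, r = 0.974), ATP6V1C2, a subunit of the vacuolar proton pump (0.246, r = 0.976), and OLFML2B (0.257, r = 0.991). Their log2 fold changes lay between -0.87 and -0.78 with TFAP2C siRNA and between -0.32 and -0.20 with Dox, beside -0.98 and -0.31 for RGS5. These genes were likewise picked for their profiles.

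**Figure D5:**
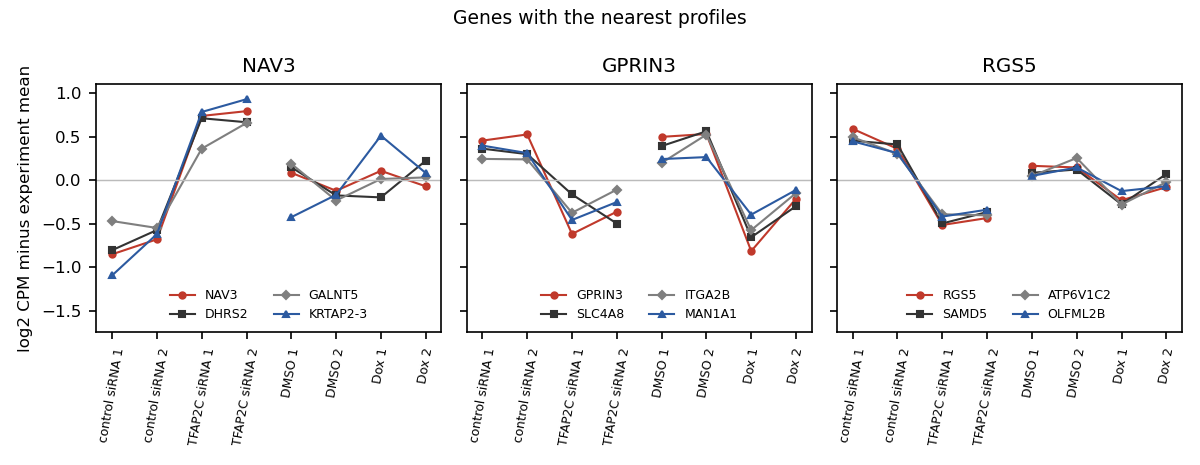
Log2 CPM of NAV3, GPRIN3 and RGS5 (red lines) and of the 3 genes nearest to each, in the 8 libraries, centered on the mean of each experiment. In the NAV3 panel all lines step up between control siRNA and TFAP2C siRNA, and in the GPRIN3 panel all step down between the groups of both experiments. The genes were picked for nearness over these libraries, so the shared steps are not a result.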

How the data were processed

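Per the labels and the study's methods, mRNA of 8 HCT116 libraries was sequenced as 51 bp single-end reads. The authors aligned reads to hg19 with TopHat2 and counted them on RefSeq genes with HTSeq (version 0.9.1 in the submitters' processing notes). They deposited 1 table of raw read counts per gene for each experiment. The siRNA table carries GRCh38 positions and Ensembl gene types, which differs from the stated processing, and it holds 37 mitochondrial genes with 9.79% to 9.96% of counts, against 0 in the other. Tables were therefore fitted separately. All count columns belonged to a sample.

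Low counts were removed with filterByExpr, libraries scaled by TMM and groups compared by the two-sided quasi-likelihood test of edgeR 4.0.16 (R 4.3.3), with Benjamini-Hochberg adjustment over all genes of a table. The unit printed is CPM with TMM-scaled library sizes, or RPKM from the deposited gene lengths. Standard errors were derived from the F statistics. edgeR estimated biological coefficients of variation of 6.28% (siRNA) and 3.56% (Dox). With 2 libraries against 2, an exact permutation test cannot go below p = 0.333. Counts were also simulated with the spread that edgeR estimated from these libraries, with 200 genes changed by 1 log2 unit. There were 5 draws per experiment, with 14788 to 14848 genes tested with siRNA and 13270 to 13297 with Dox. The test recovered 86.6% and 92.4% of the changed genes, and 8.99% and 5.21% of calls were false. Such counts follow the fitted model, so these shares cannot show how the test performs on the real libraries.

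The 3 genes and all lists were chosen with earlier results of these data known, and no p is given for the 3 genes in the siRNA contrast. Genes named besides them are their families (RGS genes that passed the filter in at least 1 table), listed genes with an adjusted p under 0.05 (at most 4 per list and experiment, by p), the 3 nearest tested genes on each side, the 3 genes of nearest profile, UBA2, and the genes next in rank by size. RGS4, NUF2 in the siRNA experiment and the cell type markers are named outside this rule and after their values were seen. Promoter windows and sequences are from RefSeq (GRCh38.p14), and their overlap with exons was read from GENCODE after an exact match to GRCh37. Alternatives were DESeq2 1.42.0, other size factors, other filters, a replicate block, all 8 libraries in one fit and leaving out each library. The values of 1 neighbouring gene are not reported here.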

Additional observations from a re-analysis of the deposited data

How the results depend on the processing

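NAV3 with TFAP2C siRNA kept a log2 fold change between 1.46 and 1.62 over 12 alternatives, GPRIN3 between -1.14 and -0.88, and RGS5 between -1.09 and -0.85, the last value without control siRNA replicate 1. With Dox, NAV3 ran from -0.064 to 0.14 when single libraries were left out, GPRIN3 from -1.53 to -0.81 and RGS5 from -0.39 to -0.24. GPRIN3 passed with the replicate block (-1.12, edgeR adjusted p = 0.0339), in a test not independent of the filter. It had no value under the filter of at least 10 counts in every library. Whether same-numbered libraries were prepared together is not given in the sources used here. Deviations of same-numbered libraries correlated at -0.139 across genes in the siRNA experiment and 0.0744 in the Dox experiment. With 2 libraries per group, such a correlation cannot settle whether they were paired. With the block, 172 genes passed with siRNA and 1308 with Dox, and of the listed genes 1 and 7 were lower. RGS6 (adjusted p = 0.0427) and RGS9 (adjusted p = 0.0361) passed with Dox under the block by edgeR, the latter with a test not independent of the filter. The crossed pairing, added after seeing the data, passed 467 genes in the siRNA experiment and 3 listed genes lower.

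Of all genes with siRNA, 398 passed without a filter and 271 with all 8 libraries in one fit, against 111, and leaving out single libraries gave 49 to 2825, where the lone library is assumed to vary like the others. With Dox, 673 passed with the Wald test of DESeq2 and 696 with all 8 libraries in one fit, against 1336, and 833 to 1271 without single libraries. Listed genes that passed lower with siRNA were 3 without a filter and 2 with all 8 libraries in one fit, against 1. Leaving out single libraries gave 0 to 5 higher and 0 to 9 lower. With Dox, listed genes higher and lower were 2 and 2 with DESeq2 and 2 and 3 with all 8 libraries, and 1 to 6 higher and 3 to 6 lower without single libraries. The cause of these shifts was not tested, except that leaving out a library or a filter changes how many libraries or genes enter the fit.

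Signs turned for differences that did not pass with all libraries. Of these, RGS20 passed with siRNA when TFAP2C siRNA replicate 2 was left out. RGS3 with siRNA was -0.0069 by library size only. When single libraries were left out, log2 fold changes with siRNA ran from -0.12 to 0.022 for NAV1, -0.15 to 0.31 for GPRIN2, -0.029 to 0.075 for RGS3, -0.030 to 0.47 for RGS20, -0.11 to 0.015 for RGS10 and -0.11 to 0.067 for RGS12. With Dox they ran from -0.13 to 0.036 for GPRIN1, -0.13 to 0.97 for GPRIN2, -0.27 to 0.0078 for RGS17 and -0.097 to 0.29 for RGS20. At these depths GPRIN3 with Dox rested on 7 to 24 reads per library.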
